A study of Mus musculus with 33 samples.

Results

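Proximal tubule transporters and endocytic receptors are membrane proteins of the first segment of the nephron. Most of them take back filtered phosphate, glucose, amino acids, sulfate, carboxylates, bicarbonate or protein. Others counted here carry organic ions or, like Slc37a4, lie in the endoplasmic reticulum. A list of 34 such genes was followed in whole kidneys of lupus-prone BWF1 mice, and 32 of the 34 were measured by a probe set that a probe annotation pairs with a single gene symbol. These 32 were set among 17097 genes named in the same way. Where a gene had several probe sets, the one brightest on average over the 33 arrays stood for it. Slc34a1, a sodium-phosphate cotransporter, and Lrp2, the endocytic receptor megalin, had no such probe set and were not analysed here. The rule for membership used gene identity, and the list itself was drawn up with earlier results of these data known.

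The cells of the proximal tubule carry sodium-coupled carriers in an apical brush border that faces the filtrate and a second set of carriers in the basolateral membrane that faces the blood. Solutes enter across the first and leave across the second, driven by the sodium gradient that the sodium pump maintains. Filtered proteins are taken up by megalin and by cubilin, which needs amnionless to reach the surface, and are then degraded in lysosomes. These carriers are a large part of what distinguishes a mature proximal tubule cell, and inherited loss of single ones causes urinary wasting of their substrate.

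All mice were F1 offspring of NZB and NZW parents (BWF1), a strain that develops lupus nephritis, and each array measured the kidney of a separate mouse. Untreated mice gave 3 kidneys, and 5 kidneys were taken at each of 1, 2, 3, 5, 7 and 9 weeks after an intravenous adenovirus carrying a mouse interferon-alpha gene (Adv-IFNα). The treated females were 9 weeks old at injection by the methods and 8 weeks old by another description. The study describes its controls as age-matched, but the labels give no age for the untreated mice, and 1 untreated group serves all 6 times. There was no group with an empty virus, so vector and interferon cannot be told apart, nor can time after injection and ageing across the weeks. Whole kidney was profiled, so fewer proximal tubule cells and less transporter RNA per cell cannot be told apart in any value below. All levels are log2 robust multi-array average (RMA) intensities, a difference of 1 being 2-fold. Apart from a rough check of signal, levels of different genes are not compared because each probe set has its own brightness.

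As a rough check of signal, 31 of the 32 lay above the median gene in the untreated kidneys. Group means ran from 3.89 for Slc7a13, which was dim, to 11.73 for Slc17a1. Since probe sets differ in brightness, this does not test the tissue label. Of the 32, 11 had an untreated mean above 10, 11 lay between 8 and 10, 8 between 6 and 8 and 2 below 6. Array medians ran from 3.97 to 4.10 and the correlation between arrays was at least 0.965. The log2 difference between the 3′ and 5′ beta-actin control probe sets, which rises with RNA degradation or incomplete copying, was 1.57 ± 0.16 (SD, n = 3) in the untreated and 1.95 ± 0.11 (SD, n = 30) in the treated kidneys and higher than in all untreated kidneys in 29 of 30 (2-sided exact permutation test, p = 0.000367). Its means at weeks 7 and 9 were 1.98 and 2.02, beside 1.95 at week 1, and counts from a fit with it as a covariate are given below.

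The proximal tubule genes are known targets of hepatocyte nuclear factors and nuclear receptors, and short DNA letters of such factors were looked for in the 250 bases before the start sites that RefSeq (GRCm38.p6) lists for 24 of the 32 genes. AGGTCA, the core letters bound by many nuclear receptors, stood in either orientation before 8 of the 24 genes (33.3%), namely Slc17a1, Slc20a1, Slc2a2, Slc34a3, Slc37a4, Slc4a4, Slc7a7 and Slc7a9, and before 15.8% of 27025 genes. GTTAAT, the core letters of HNF1, stood before 1 of 24 (4.17%) against 7.49% of all genes, and TATAAA, the TATA box, before 4 of 24 (16.7%) against 14.3%. A gene was counted if any of its listed starts had a match. The 24 genes had 35 starts and the 27025 genes 32851, so the 24 had more starts per gene and more chances of a match. None of the 3 motifs contains another. The windows of Slc7a8 and Cubn are shown because both genes fell at week 7, and those of Slc3a1 and Slc2a2 because neither passed the test in any comparison. Sequences are 5′ to 3′ on the strand of the gene, and capitals mark TATAAA or AGGTCA in either orientation.
Slc7a8: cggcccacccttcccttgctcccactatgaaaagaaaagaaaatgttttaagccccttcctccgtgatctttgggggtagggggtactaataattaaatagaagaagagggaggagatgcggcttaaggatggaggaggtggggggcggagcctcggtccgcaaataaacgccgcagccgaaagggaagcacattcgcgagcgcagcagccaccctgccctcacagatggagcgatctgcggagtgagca
Cubn: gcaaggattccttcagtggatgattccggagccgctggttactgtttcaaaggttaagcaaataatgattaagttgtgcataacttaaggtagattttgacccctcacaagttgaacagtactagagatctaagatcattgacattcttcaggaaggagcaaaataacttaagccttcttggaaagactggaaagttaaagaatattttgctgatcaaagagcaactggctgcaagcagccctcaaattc
Slc3a1: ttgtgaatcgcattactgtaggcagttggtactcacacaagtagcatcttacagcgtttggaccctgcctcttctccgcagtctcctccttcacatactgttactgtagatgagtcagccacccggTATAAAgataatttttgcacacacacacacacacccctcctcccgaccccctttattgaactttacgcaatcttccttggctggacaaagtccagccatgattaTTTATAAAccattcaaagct
Slc2a2: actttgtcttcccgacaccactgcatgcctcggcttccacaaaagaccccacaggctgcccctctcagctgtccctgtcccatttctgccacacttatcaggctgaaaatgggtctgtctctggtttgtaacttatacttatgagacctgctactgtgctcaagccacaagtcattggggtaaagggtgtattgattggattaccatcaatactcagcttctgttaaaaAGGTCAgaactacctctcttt
The Slc7a8 window is chr14:54781887-54782136 (minus strand), that of Cubn chr2:13491877-13492126 (minus strand), that of Slc3a1 chr17:85028097-85028346 (plus strand) and that of Slc2a2 chr3:28697653-28697902 (plus strand). Neither of the first 2 holds any of the 3 motifs, Slc3a1 holds TATAAA letters and Slc2a2 holds AGGTCA close to its start. A match is a description of letters and not a bound site. The windows shown do not stand for all genes that fell or did not. Those of Slc5a1 and Slc1a1, which also passed in no comparison, held none of the 3 motifs. Of the genes with AGGTCA, Slc34a3, Slc37a4, Slc4a4 and Slc7a9 fell at week 7. Slc17a1 and Slc20a1 rose, and Slc2a2 and Slc7a7 did not pass the test. At that week 16 of all 32 genes fell and 3 rose. A link between motifs and changes was not tested.

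During the first 5 weeks most of the transporters stayed near their untreated levels. None of the 32 passed an adjusted p of 0.05 in either direction at week 1, 2, 3 or 5 (limma over all 45037 probe sets, Benjamini-Hochberg adjustment), when 0.316%, 0.398%, 0.269% and 0.79% of all genes fell and 1.4%, 1.27%, 1.51% and 2.75% rose. At an unadjusted p below 0.05 there were 1, 3, 5 and 1 members. The median log2 difference of the 32 was 0.00, 0.01, 0.10 and 0.02, beside -0.00, -0.02, 0.02 and 0.01 over all genes, and 29 or more of the 32 lay within 0.5 of untreated at every one of these times.

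The largest early differences belonged to Slc16a14, an orphan member of the monocarboxylate carriers, and Slc6a19, the main brush border carrier of neutral amino acids. Slc16a14 measured 8.23, 8.19 and 8.22 in the untreated kidneys. At week 3 it measured 7.43, 6.89, 6.61, 7.14 and 7.35 and at week 5 7.21, 7.35, 7.55, 7.58 and 7.06. All 10 of these kidneys lay below the 3 untreated ones, as did all kidneys of weeks 1 and 2. The highest of the 20 kidneys of weeks 1 to 5 was 8.10, and the lowest untreated kidney 8.19. The log2 difference was -1.13 (SE 0.43, adjusted p = 0.198) at week 3 and -0.86 (SE 0.43, adjusted p = 0.297) at week 5. Neither passed the limma test over all groups. That fit shares an estimate of spread between groups, and the SD of Slc16a14 was 0.02 in untreated, 0.34 in week 3 and 1.45 in week 7 kidneys. Slc6a19 moved the other way, with 7.66, 7.75 and 8.004 in untreated and 8.84, 8.38, 8.56, 8.62 and 8.74 in week 3 kidneys. All 5 week 3 kidneys were above the untreated ones (log2 difference 0.82, SE 0.32, adjusted p = 0.212). Fitted on the 2 groups compared alone, Slc16a14 passed at weeks 3 and 5 (adjusted p = 0.00707 and 0.0118) and Slc6a19 at week 3 (adjusted p = 0.0138).

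**Figure D1:**
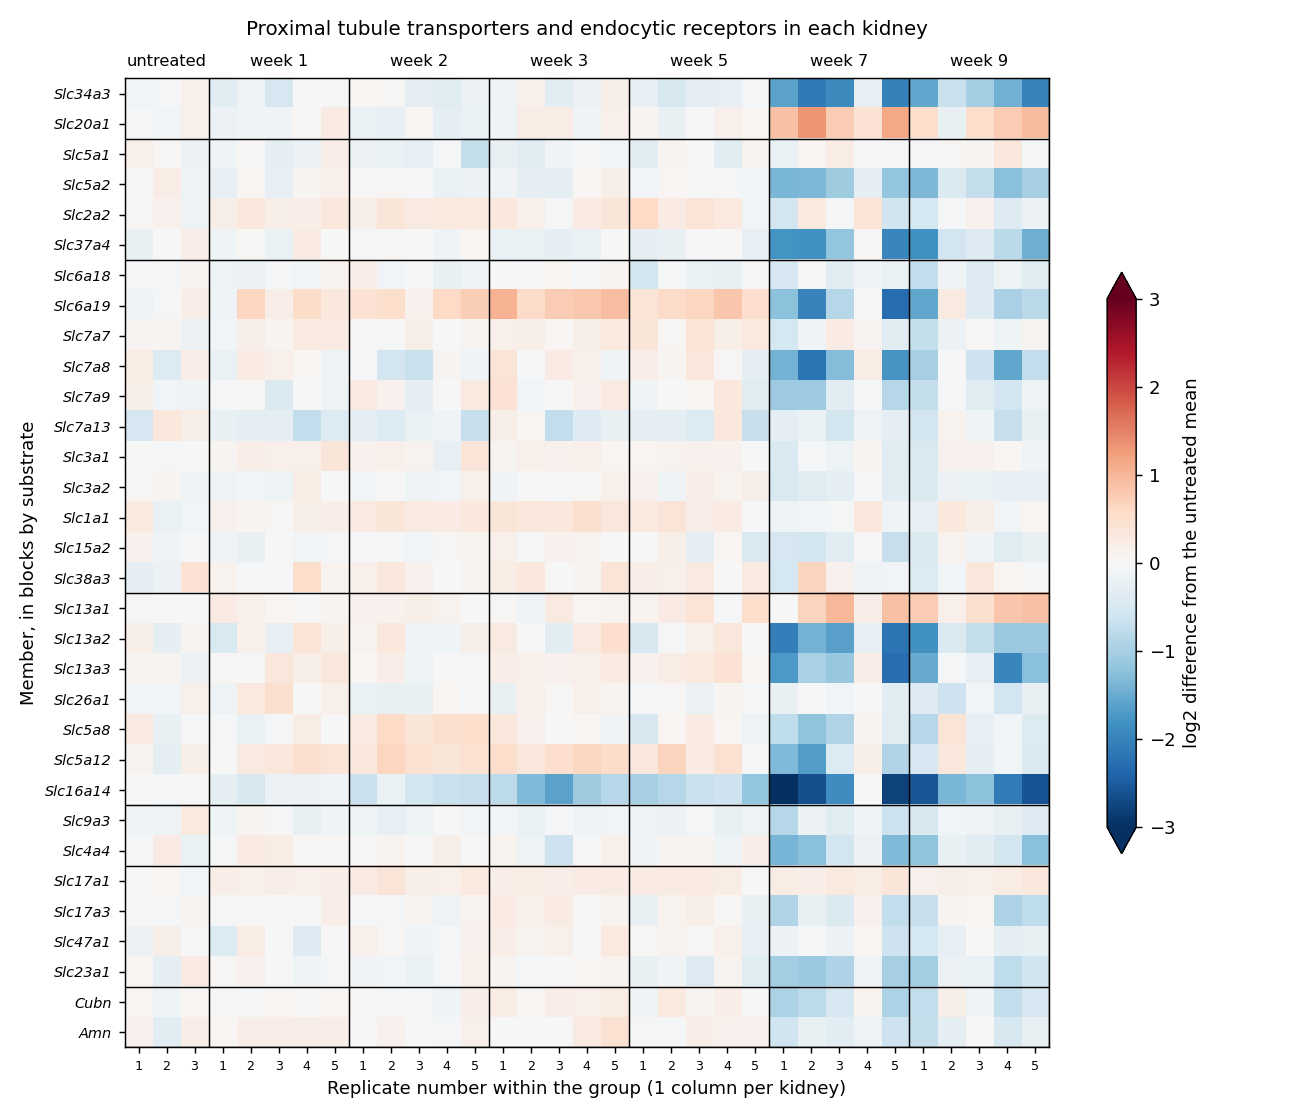
Heat map of the 32 genes (rows, grouped by substrate) in the 33 kidneys (columns, grouped by week), coloured by the log2 difference from the mean of the 3 untreated kidneys. More rows lie below the untreated mean than above it in 4 of 5 kidneys at week 7 (25 to 29 rows). The same holds in all 5 at week 9 (19 to 29 rows), and the exception at week 7 is replicate 4 with 13 rows below. Such a majority also occurs in untreated replicate 2 (20 rows) and in several earlier treated kidneys. Among these are week 1 replicate 1 (23 rows) and week 5 replicate 5 (21 rows).

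At week 7 against untreated, 16 of the 32 genes fell, 3 rose and 13 did not pass the test. Over all 17097 genes 6.83% fell and 13.2% rose in the same comparison. The fall exceeded 2-fold for 8 of the 16, a size that 1.22% of all genes reached. The median log2 difference was -0.42 over the 32 genes and 0.03 over all genes, and 27 of the 32 differences lay below zero. Genes for carriers of every substrate class were among those that fell, with the largest falls in Slc16a14, Slc34a3, Slc13a2 and Slc37a4, while Slc20a1, Slc13a1 and Slc17a1 rose. By membrane, 11 of 21 apical and 3 of 8 basolateral genes fell, and 2 apical and 0 basolateral genes rose. The count of falls was 10 without week 7 replicate 1, 9 with the beta-actin difference as a covariate and 3 when only the week 7 and untreated kidneys were fitted. Slc20a1 alone was counted as rising under the last 2 of these settings, and 1 rise was left without untreated replicate 1 or 3 or week 7 replicate 3 or 5.

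**Figure D2:**
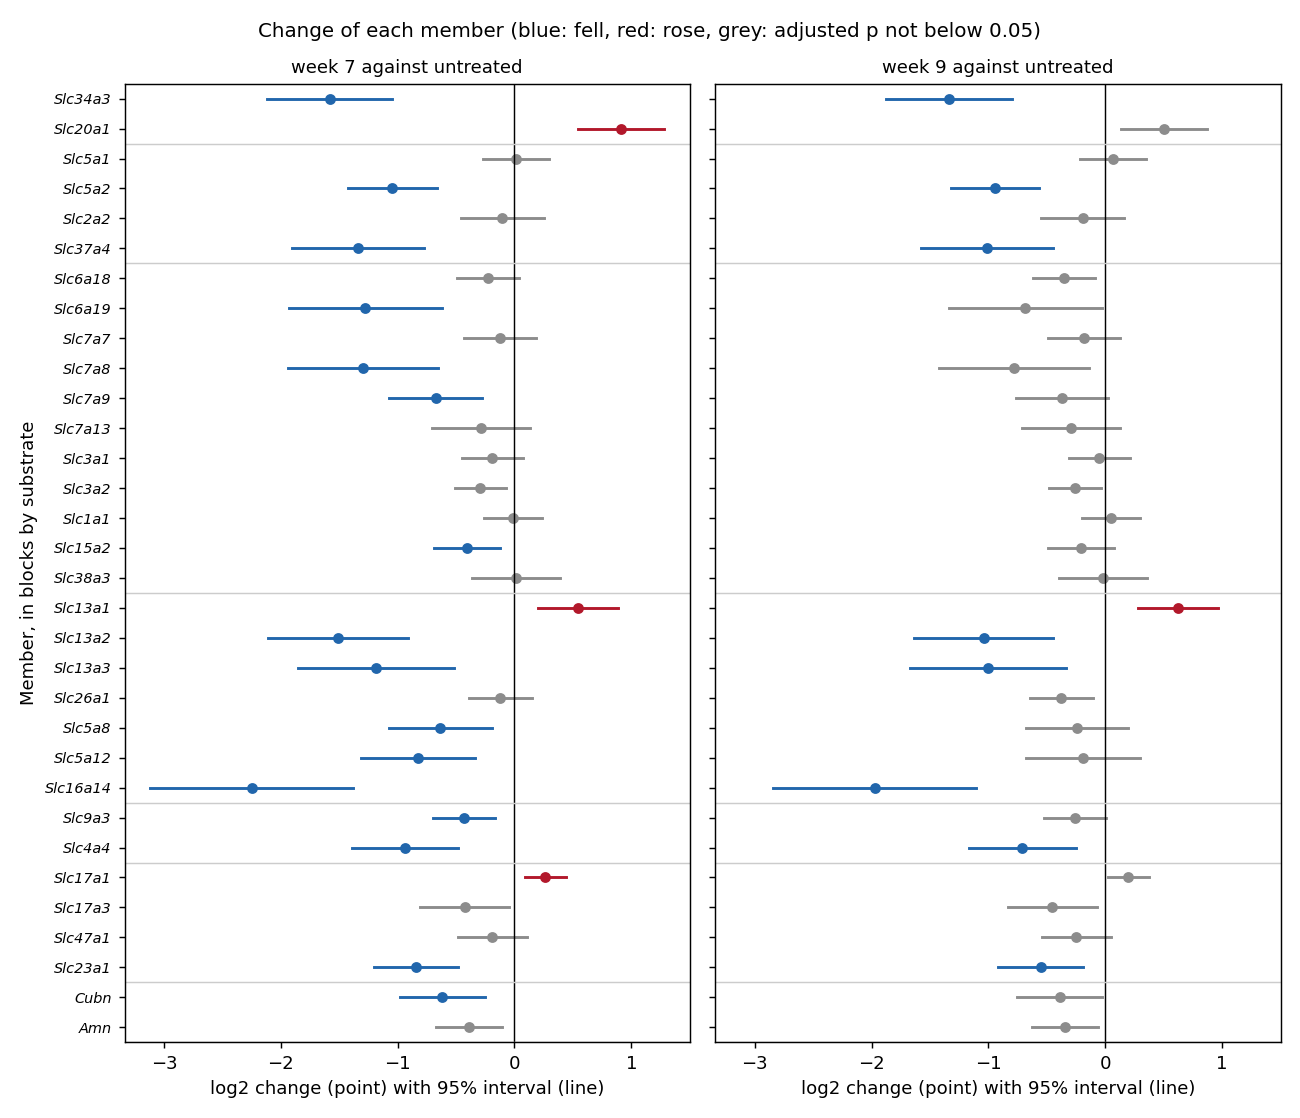
Log2 differences from untreated at week 7 and week 9 for the 32 genes, with 95% confidence intervals from the fit over 33 arrays, grouped by substrate, blue where the gene fell and red where it rose at an adjusted p below 0.05, grey otherwise. The points run from -2.25 for Slc16a14 to 0.91 for Slc20a1 at week 7.

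The 2 measured phosphate carriers moved in opposite directions. Slc34a3, an apical sodium-phosphate cotransporter confined largely to the kidney, measured 6.30, 6.32 and 6.53 in untreated and 6.13, 5.91, 6.11, 6.13 and 6.32 in week 5 kidneys. It then measured 4.78, 4.27, 4.48, 6.13 and 4.36 at week 7 and 4.83, 5.72, 5.36, 4.95 and 4.38 at week 9. Both late groups lay wholly below the untreated range, and only week 7 replicate 4 kept a week 5 level. The log2 difference was -1.58 (SE 0.26, adjusted p = 9.51e-05) at week 7, a 2.99-fold fall, and -1.34 (SE 0.26, adjusted p = 0.000869) at week 9. Slc20a1, a phosphate carrier found in most cell types, measured 6.84, 6.81 and 7.04 in untreated, 7.78, 8.21, 7.66, 7.34 and 8.06 in week 7 and 7.41, 6.66, 7.42, 7.66 and 7.84 in week 9 kidneys. Every week 7 kidney was above the untreated ones, and at week 9 replicate 2 was below them. Its difference of 0.91 (SE 0.18, adjusted p = 0.00065) passed at week 7 and that of 0.50 (SE 0.18, adjusted p = 0.06) at week 9 did not.

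Among the glucose genes, the carrier of the early tubule fell and that of the late tubule did not. Slc5a2, which takes up the bulk of filtered glucose, measured 8.18, 8.47 and 8.08 in untreated, 6.86, 6.90, 7.17, 7.96 and 7.08 in week 7 and 6.90, 7.82, 7.53, 6.99 and 7.24 in week 9 kidneys. All 10 late kidneys were below the 3 untreated ones. The difference was -1.05 (SE 0.19, adjusted p = 0.000199) at week 7 and -0.95 (SE 0.19, adjusted p = 0.000844) at week 9. Slc5a1, the high-affinity carrier further along the tubule, measured 8.32, 8.20 and 7.99 in untreated and 7.96, 8.22, 8.40, 8.19 and 8.14 in week 7 kidneys. Its groups overlapped, and the difference was 0.01 with a 95% interval of -0.27 to 0.30 at week 7 and 0.07 with -0.22 to 0.35 at week 9. A dimmer second Slc5a1 probe set gave 0.40 and 0.55, which did not pass the test (adjusted p = 0.158 and 0.0518).

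Slc37a4, which moves glucose 6-phosphate into the endoplasmic reticulum for release as glucose, measured 10, 10.22 and 10.41 in untreated, 8.43, 8.39, 9.04, 10.24 and 8.26 in week 7 and 8.40, 9.63, 9.82, 9.39 and 8.76 in week 9 kidneys. Apart from week 7 replicate 4, every late kidney lay below the untreated ones (-1.34, SE 0.28, adjusted p = 0.00101 at week 7, -1.01, SE 0.28, adjusted p = 0.0136 at week 9). Slc2a2, the basolateral glucose exit carrier, measured 10.34, 10.43 and 10.15 in untreated and 9.75, 10.60, 10.25, 10.71 and 9.72 in week 7 kidneys. Week 7 kidneys fell on both sides of the untreated range, with a difference of -0.10 (95% interval -0.46 to 0.25).

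Of 11 amino acid and peptide genes, 4 fell at week 7, none rose, and 7 did not pass. Slc6a19 measured 6.56, 5.80, 6.95, 7.80 and 5.53 at week 7 and 6.26, 8.07, 7.43, 6.84 and 7.002 at week 9. Against untreated these gave -1.28 (SE 0.32, adjusted p = 0.00551) and -0.68 (SE 0.32, adjusted p = 0.154). Against week 5, when it stood at 8.20, 8.38, 8.45, 8.63 and 8.30, the week 7 difference was -1.86 (SE 0.28, adjusted p = 0.000147), and every week 7 kidney was below every week 5 kidney.

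Slc7a8, the basolateral exchanger of neutral amino acids, measured 7.27, 6.62 and 7.23 in untreated and 5.62, 4.84, 5.73, 7.26 and 5.27 in week 7 kidneys. Replicate 4 again lay inside the untreated range while the other 4 were below it (-1.30, SE 0.32, adjusted p = 0.00433). At week 9 it measured 6.03, 7.05, 6.43, 5.48 and 6.30, of which 4 were below the untreated range (-0.78, SE 0.32, adjusted p = 0.0939). Slc7a9, the transporting subunit of the cystine carrier, fell at week 7 (-0.67, SE 0.19, adjusted p = 0.0152), as did Slc15a2, the high-affinity peptide carrier (-0.41, SE 0.14, adjusted p = 0.0404). At week 9 these stood at -0.37 and -0.21 and did not pass (adjusted p = 0.209 and 0.338).

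Slc3a1, the heavy chain that brings the Slc7a9 product to the membrane, measured 11.30, 11.25 and 11.30 in untreated and 10.82, 11.24, 11.13, 11.36 and 10.92 in week 7 kidneys, a difference of -0.19 (95% interval -0.45 to 0.07). Slc3a2, the heavy chain of the Slc7a7 and Slc7a8 products, had -0.29 (SE 0.11, adjusted p = 0.0607) at week 7, with 4 of 5 kidneys below the untreated ones. Its fall was called against week 5 (-0.39, SE 0.09, adjusted p = 0.00702). The intervals at week 7 were -0.43 to 0.18 for Slc7a7, the basolateral carrier of cationic amino acids, -0.49 to 0.04 for Slc6a18, a brush border glycine and neutral amino acid carrier, and -0.26 to 0.23 for Slc1a1, the glutamate carrier. They were -0.36 to 0.39 for Slc38a3, the basolateral glutamine carrier, and -0.71 to 0.13 for Slc7a13, an aspartate and glutamate carrier whose signal was dim. With these brightest probe sets, none of these 5 passed the test against untreated at any week. A dimmer second Slc7a13 probe set fell at week 9 (-0.66, adjusted p = 0.0279) and gave -0.53 (adjusted p = 0.0768) at week 7.

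Of the sulfate and carboxylate genes, 5 of 7 fell and 1 rose at week 7, with a median of -0.83. Slc16a14 measured 4.27, 5.57, 6.36, 8.19 and 5.44 at week 7 and 5.65, 6.84, 6.98, 6.10 and 5.61 at week 9. Nearly all of these were below the untreated kidneys, the exception being week 7 replicate 4 at the lower edge of their narrow range (-2.25, SE 0.43, adjusted p = 0.000423 at week 7, -1.97, SE 0.43, adjusted p = 0.00212 at week 9). Its fold at week 7 was 4.75, the largest of the 32, and its spread there was the widest (SD 1.45, n = 5).

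Slc13a2, the apical carrier that recovers citrate, measured 6.87, 6.42 and 6.77 in untreated, 4.63, 5.26, 5.05, 6.45 and 4.50 in week 7 and 4.86, 6.25, 5.97, 5.57 and 5.57 in week 9 kidneys. All week 9 kidneys and 4 of 5 week 7 kidneys were below the untreated ones (-1.51, SE 0.29, adjusted p = 0.000528 at week 7, -1.04, SE 0.29, adjusted p = 0.0157 at week 9). Slc13a3, its basolateral relative for dicarboxylates, measured 10.14, 10.13 and 9.88 in untreated, 8.34, 9.07, 8.91, 10.24 and 7.78 in week 7 and 8.54, 9.99, 9.80, 8.11 and 8.79 in week 9 kidneys. The late groups were split, with 1 week 7 kidney above the untreated range and 1 week 9 kidney inside it (-1.19, SE 0.33, adjusted p = 0.0116 at week 7, -1.01, SE 0.33, adjusted p = 0.0371 at week 9).

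The apical lactate carriers Slc5a12 and Slc5a8 fell at week 7. Slc5a12 measured 10.33, 9.94 and 10.39 in untreated and 8.90, 8.54, 9.81, 10.39 and 9.33 in week 7 kidneys (-0.83, SE 0.24, adjusted p = 0.016). At week 9 it measured 9.72, 10.57, 9.93, 10.14 and 9.80, across the untreated range, with a difference of -0.19 (adjusted p = 0.652). Slc5a8 gave -0.63 (SE 0.22, adjusted p = 0.0415) at week 7 and -0.24 (SE 0.22, adjusted p = 0.4926) at week 9.

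Slc13a1, the apical sulfate carrier, rose. It measured 10.72, 10.76 and 10.77 in untreated, 10.76, 11.41, 11.73, 10.95 and 11.63 in week 7 and 11.52, 10.89, 11.23, 11.57 and 11.64 in week 9 kidneys. All week 9 kidneys and 4 of 5 week 7 kidneys lay above the untreated ones (0.55, SE 0.17, adjusted p = 0.0231 at week 7, 0.62, SE 0.17, adjusted p = 0.0124 at week 9), and a second, dimmer probe set rose at both weeks (0.90 and 0.76). Slc26a1, the basolateral sulfate carrier, was -0.12 at week 7 and -0.38 at week 9, neither passing the test (adjusted p = 0.594 and 0.0524).

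**Figure D3:**
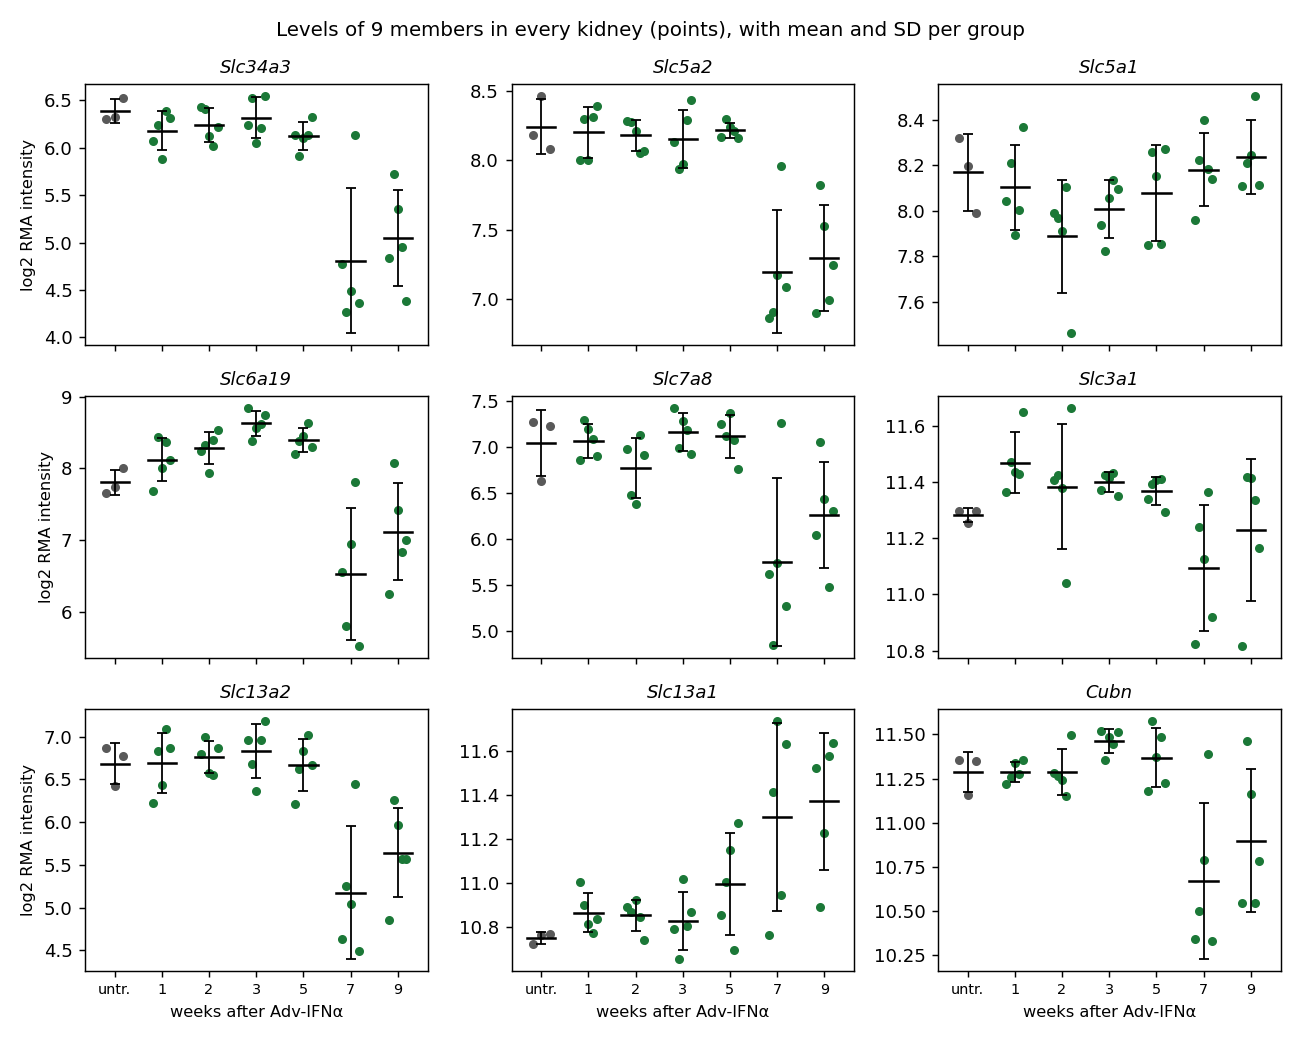
Log2 RMA level of 9 of the genes in each of the 33 kidneys by week, each point 1 kidney, each bar a group mean and each whisker 1 SD. Slc34a3, Slc5a2, Slc6a19, Slc7a8, Slc13a2 and Cubn drop in most kidneys after week 5, Slc5a1 and Slc3a1 stay within their earlier range in most kidneys, and Slc13a1 rises.

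Both acid-base genes fell at week 7. Slc4a4, the basolateral sodium-bicarbonate cotransporter, measured 9.61, 9.90 and 9.44 in untreated, 8.26, 8.40, 9.10, 9.47 and 8.32 in week 7 and 8.44, 9.41, 9.34, 9.09 and 8.39 in week 9 kidneys. All week 9 kidneys lay below the untreated range and 1 week 7 kidney lay inside it (-0.94, SE 0.22, adjusted p = 0.00368 at week 7, -0.71, SE 0.22, adjusted p = 0.0307 at week 9). Slc9a3, the apical sodium-proton exchanger that starts bicarbonate recovery, gave -0.43 (SE 0.13, adjusted p = 0.0203) at week 7 and -0.26 (SE 0.13, adjusted p = 0.183) at week 9.

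Of the 4 organic ion and ascorbate genes, Slc23a1 fell and Slc17a1 rose. Slc23a1, the apical vitamin C carrier, measured 9.35, 9.01 and 9.54 in untreated, 8.26, 8.17, 8.37, 9.16 and 8.31 in week 7 and 8.25, 9.12, 9.11, 8.54 and 8.69 in week 9 kidneys. Below the untreated range were 4 of 5 kidneys at week 7 and 3 of 5 at week 9 (-0.84, SE 0.18, adjusted p = 0.00115 at week 7, -0.55, SE 0.18, adjusted p = 0.0329 at week 9). Slc17a1 and Slc17a3 are neighbouring genes for urate and organic anion carriers. Slc17a1 rose by a small amount at week 7 (0.26, SE 0.09, adjusted p = 0.0345), with all 5 week 7 kidneys above the untreated ones. This was not particular to week 7. Its lowest kidneys at weeks 1, 2, 3 and 9 (11.87, 11.88, 11.93 and 11.85) also lay above the highest untreated kidney (11.78). Its mean was 11.98 at week 2 and 11.99 at week 7. Slc17a3 had -0.43 (SE 0.19, adjusted p = 0.124) at week 7. Slc47a1, the organic cation and proton exchanger, had an interval of -0.48 to 0.10 at week 7.

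Of the endocytic receptor genes, Cubn measured 11.36, 11.16 and 11.35 in untreated, 10.34, 10.50, 10.79, 11.39 and 10.33 in week 7 and 10.54, 11.46, 11.16, 10.55 and 10.78 in week 9 kidneys. Each late group had 1 kidney above the untreated range and most of the others below it (-0.62, SE 0.18, adjusted p = 0.0158 at week 7, -0.39, SE 0.18, adjusted p = 0.147 at week 9). A second Cubn probe set, dimmer by mean level, fell at both weeks, with log2 differences of -1.24 (adjusted p = 0.000322) and -1.05 (adjusted p = 0.00248). Amn, which encodes amnionless, measured 7.08, 6.63 and 7.16 in untreated and 6.35, 6.73, 6.62, 6.81 and 6.34 in week 7 kidneys. It missed the threshold against untreated at week 7 (-0.39, SE 0.14, adjusted p = 0.0547) and fell against week 5 (-0.48, SE 0.12, adjusted p = 0.00982), when all 5 kidneys lay lower than those of week 5.

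At week 9 against untreated, 8 of the 32 genes fell and 1 rose, where 7.57% of all genes fell and 9.05% rose. Those that fell were Slc34a3, Slc5a2, Slc37a4, Slc13a2, Slc13a3, Slc16a14, Slc4a4 and Slc23a1, the first 6 with log2 differences of -1.34, -0.95, -1.01, -1.04, -1.01 and -1.97, and Slc13a1 rose. The fall exceeded 2-fold for 5, against 0.643% of all genes. The median log2 difference was -0.32 over the 32 genes and -0.03 over all genes. Of the amino acid and peptide genes, 0 of 11 were called at week 9 by their brightest probe sets (limma), with 4 of them at an unadjusted p below 0.05. Dimmer probe sets of Slc15a2 and Slc7a13 did fall at that week. The number that fell was 13 without week 9 replicate 2, 3 without week 9 replicate 1, 4 without untreated replicate 1 or 3, 3 with the beta-actin covariate and 4 with only the 2 groups fitted.

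In comparisons among treated kidneys every mouse had received the virus. From week 5 to week 7, 16 genes fell and 1 rose (Slc20a1), where 5.53% and 6.01% of all genes did, and the fall exceeded 2-fold for 9 against 1.04% of all genes. The median was -0.39 beside 0.04 over all genes, and only the 2 groups fitted gave 10 falls. From week 1 to week 9, 11 genes fell and 2 rose (Slc20a1 and Slc13a1), where 6.11% and 6.6% of all genes did, with a median of -0.35 beside -0.03. Neither rise was called without week 9 replicate 1, 4 or 5, and 1 was left without any single one of week 1 replicates 1 to 4. Slc26a1 and Amn fell here (-0.53, SE 0.11, adjusted p = 0.0026 and -0.52, SE 0.12, adjusted p = 0.00465).

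Between week 7 and week 9 no gene of the 32 passed the test in either direction (limma), where 0.0585% of all genes fell and 0.0117% rose, and 5 had an unadjusted p below 0.05. The median difference of week 9 minus week 7 was 0.12, beside -0.07 over all genes. The largest were Slc5a12 and Slc6a19, higher at week 9 by 0.64 (adjusted p = 0.206) and 0.59 (adjusted p = 0.361). Without week 7 replicate 4, Slc7a8 and Slc5a12 were called higher at week 9. The week 7 and week 9 values against untreated share the same 3 kidneys and are given side by side only.

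The late kidneys of each week were not alike. The median difference of the 32 genes from untreated lay between -0.09 and 0.11 at week 1 and between -0.06 and 0.11 at week 5. It was -0.68, -0.29, -0.35, 0.02 and -0.63 in week 7 replicates 1 to 5, and -0.70, -0.08, -0.14, -0.43 and -0.30 in week 9 replicates 1 to 5. The numbers of genes below all 3 untreated kidneys were 27, 19, 24, 3 and 25 at week 7 and 28, 12, 15, 22 and 23 at week 9, beside 1 to 10 in the 20 kidneys of weeks 1 to 5. The median SD of the 32 genes among replicates was 0.12 to 0.16 up to week 5, 0.42 at week 7 and 0.32 at week 9.

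The same kidneys differed in markers of other cells and states, whose part in the transporter values was not tested. Lcn2, a secreted protein of damaged tubules and neutrophils, measured 9.55, 9.93, 8.53, 4.30 and 9.21 in week 7 replicates 1 to 5 and 8.84, 4.82, 5.90, 9.94 and 8.55 in week 9 replicates 1 to 5. The kidneys with low Lcn2, week 7 replicate 4 and week 9 replicates 2 and 3, were the 3 late kidneys with the smallest transporter differences. Lcn2 was 3.75 to 4.37 in untreated kidneys. Havcr1, the kidney injury molecule of the proximal tubule brush border, measured 6.64 to 7.33 in untreated kidneys, 10.06, 10.59, 9.45, 7.54 and 10.83 in week 7 replicates 1 to 5 and 10.53, 8.46, 8.43, 9.94 and 10.29 in week 9 replicates 1 to 5, lowest in the same 3 late kidneys. All 9 measured injury markers rose at week 7 and 8 of 9 at week 9, and their mean level ran from 5.46 to 5.75 in untreated, 6.31 to 8.55 in week 7 and 6.50 to 8.55 in week 9 kidneys.

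Macrophage markers rose for 8 of 10 genes at both weeks, their mean level running from 3.78 to 3.85 in untreated, 4.98 to 5.99 in week 7 and 4.93 to 6.28 in week 9 kidneys. By kidney, this mean was 5.99, 4.99, 5.25, 4.98 and 5.65 in week 7 replicates 1 to 5. In week 9 replicates 1 to 5 it was 6.28, 4.93, 5.14, 5.85 and 5.80. The transporter medians of the same kidneys are given above, and a link between them was not tested. Macrophage levels were also above all untreated kidneys at weeks 1, 2, 3 and 5, with lowest values of 4.33, 4.01, 4.07 and 4.37. Over all genes 13.2% rose at week 7 and 9.05% at week 9, and 6.83% and 7.57% fell. T cell markers rose for 1 of 6 at week 7, near that share, and 3 of 6 at week 9, and fibroblast and matrix markers for 3 of 7 and 2 of 7. Of 6 podocyte markers, 1 rose and 1 fell at week 7 and none was called at week 9 (limma), with 1 at an unadjusted p below 0.05. Of 4 B and plasma cell markers 1 rose at both weeks, Jchain, the joining chain of secreted antibodies (2.53, adjusted p = 0.00204 and 3.81, adjusted p = 3.33e-05). The mean level of these 4 ran from 2.92 to 3.26 in untreated, 3.31 to 4.19 in week 7 and 3.86 to 4.68 in week 9 kidneys. Endothelial markers fell for 3 of 8 at each week. The mean level of 4 neutrophil markers ran from 2.45 to 2.76 in untreated, 2.12 to 2.65 in week 7 and 2.35 to 2.75 in week 9 kidneys, and 1 of the 4, S100a8, fell at week 9 (-0.56, adjusted p = 0.0429). Falls were also seen elsewhere in the nephron: 6 of 15 loop and distal genes fell at week 7 and 7 of 15 at week 9, with 1 rising at each. Their median log2 difference was -0.17 at week 7 and -0.38 at week 9, beside -0.42 and -0.32 for the 32 genes. The largest fall was -3.06 and -2.83, beside -2.25 and -1.97 among the 32.

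**Figure D4:**
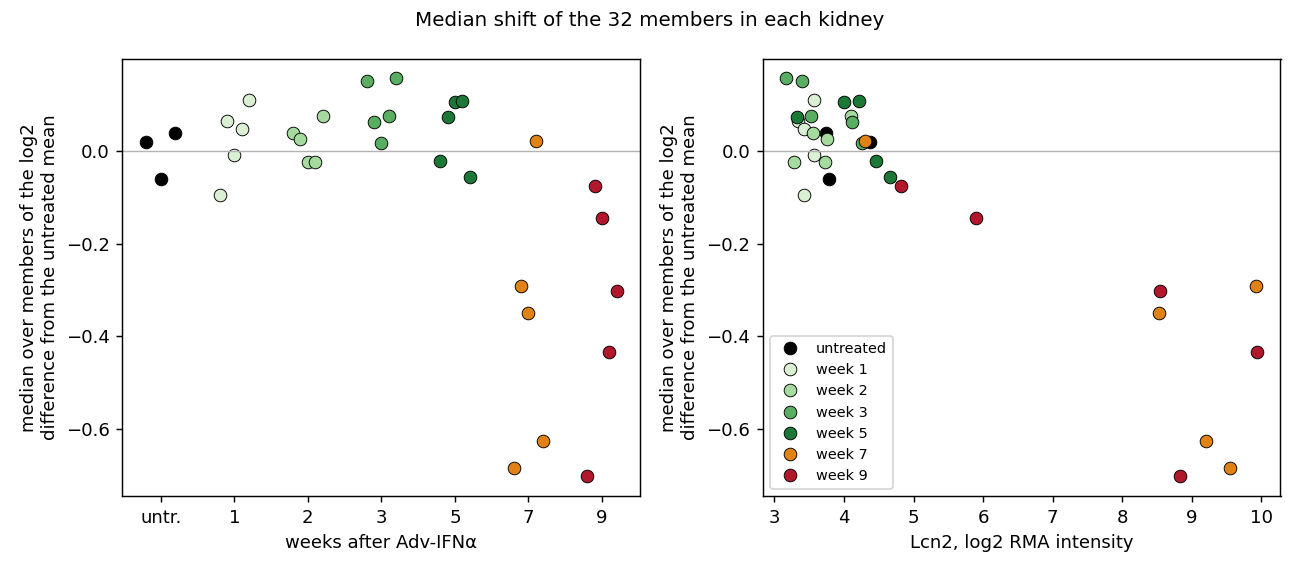
Median log2 difference of the 32 genes from the untreated mean in each kidney, by week and against the log2 level of Lcn2. Kidneys of weeks 1 to 5 lie near 0, and late kidneys with Lcn2 above 8 lie between -0.29 and -0.70.

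Genes that work with the transporters changed in part. Of 16 partners and scaffolds, 5 fell at week 7 and 3 at week 9, and none rose. Pdzk1, the scaffold that anchors brush border carriers, fell, with a log2 difference of -1.21 (adjusted p = 0.000205) at week 7 and -1.03 (adjusted p = 0.00164) at week 9. Lrpap1, the chaperone of megalin, fell at both weeks (-0.93 and -0.81), as did Kl, the co-receptor for the phosphate hormone of bone (-0.99 and -0.86). Pth1r, the parathyroid hormone receptor, and Aqp1, the water channel, fell at week 7 (-0.61 and -0.53) and gave -0.30 and -0.24 at week 9 (adjusted p = 0.206 and 0.29). Neither was called between week 7 and week 9 (adjusted p = 0.32 and 0.323). Aqp1 and the 4 partners that follow were named after their values were seen. The scaffold Slc9a3r1 gave 0.24 (95% interval -0.02 to 0.51), and Dab2, the megalin adaptor, gave -0.28 (-0.60 to 0.04). Clcn5, the endosomal chloride exchanger, gave 0.08 (-0.12 to 0.28), and Cltrn, which carries Slc6a19 to the surface, gave -0.12 (-0.34 to 0.11).

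Of 6 measured regulators of proximal tubule genes, Ppara and Esrra, receptors that drive fat oxidation and mitochondrial genes, fell at week 7 (-0.93, adjusted p = 0.00179, and -0.51, adjusted p = 0.0346), and Ppara also at week 9 (-0.60, adjusted p = 0.0452). Pax8, a factor of kidney epithelium, rose from week 5 to week 7 by 1.23 (adjusted p = 0.00229), with every week 7 kidney above those of week 5. Its means were 7.09 in untreated, 6.42 in week 5 and 7.64 in week 7 kidneys, and the week 7 difference from untreated of 0.56 did not pass (adjusted p = 0.217). Hnf4g rose by 0.52 (adjusted p = 0.0211), from a dim untreated mean of 2.88. Hnf4a, the receptor that specifies the proximal tubule, was bright in untreated kidneys (11.87 to 12.15) and gave -0.13 (95% interval -0.34 to 0.09). Among proximal tubule enzymes 9 of 14 fell and 1 rose at week 7, with a median of -0.80. Over all genes 6.83% fell and 13.2% rose at that week. Ass1, of arginine synthesis, and G6pc, which acts on the glucose 6-phosphate that Slc37a4 delivers, fell (log2 differences -1.73 and -1.55). Mep1b and Miox, a brush border protease and the enzyme that breaks down inositol, also fell (-1.48 and -1.32). The rise, by 0.38, was in Enpep, a brush border peptidase named because it was the only enzyme that rose at week 7. At week 9, 4 of the 14 enzymes fell and 1 rose, with a median of -0.40. Over all genes 7.57% fell and 9.05% rose at week 9.

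Pairs of carriers that share a substrate or a complex were compared within each kidney, as the log2 difference between their levels, in 15 exact tests over 5 pairs. The pairs were chosen with the values above known. The Slc5a2 minus Slc5a1 difference shifted by -1.06 from untreated to week 7 (2-sided exact permutation test, p = 0.0179, the smallest that 5 against 3 kidneys allow, adjusted p = 0.134) and by -1.12 from week 5 to week 7 (exact p = 0.00794, adjusted p = 0.119). All 5 week 7 kidneys lay below all kidneys of either comparison group. The Slc7a9 minus Slc3a1 shift at week 7 was -0.49 (exact p = 0.0536, adjusted p = 0.159) and that of Slc7a8 minus Slc3a2 -1.003 (exact p = 0.125, adjusted p = 0.234). None of the 15 passed after adjustment, and Slc7a7 minus Slc3a2 and Cubn minus Amn shifted by 0.17 and -0.23.

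A further 14 probe sets measured 11 of the 32 genes a second time. At week 7, 10 of them belonged to genes that had been called, of which 8 gave the same call, 2 were not called and none was called in the opposite direction. At week 9 the numbers were 2 of 5 with the same call and 3 not called. Slc15a2 had 2 further probe sets that fell at both weeks (-0.83 and -0.72 at week 7, -0.74 and -0.57 at week 9), although its brightest probe set passed only at week 7.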

How the data were processed

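Per the labels, the RNA came from Trizol extracts and was biotin-labelled by the NuGEN Ovation system. The authors hybridised it to Affymetrix HT-MG-430 PM arrays and normalised it by RMA, and they deposited logarithmic values. Their base is not stated, and since the deposited values ranged from 0.58 to 13.11 they were read as log2. Partek is also named in the submitters' processing notes, and no genome build applies to these values. They were used without further normalization. After 104 control probe sets were left out of 45141, 45037 were tested, of which 28898 had 1 gene symbol, 551 several and 15588 none. All 32 measured genes are named. Up to 4 called genes of largest change are named from the partners, regulators, proximal tubule enzymes, B and plasma cell markers and neutrophil markers. Lcn2, Havcr1 and Hnf4a are named whatever their values. The other marker lists are given as counts, in part with mean levels. Genes named outside this rule are said to be so where they appear. The members and lists were chosen with earlier results of these data known.

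A linear model with 7 group means was fitted over 33 arrays (limma 3.58.1 in R 4.3.3, lmFit and eBayes, 26 residual degrees of freedom). P-values were adjusted by Benjamini-Hochberg over all probe sets, and a call was an adjusted p below 0.05. The method was tested on simulated data that had the same spread in every group. That test therefore does not cover the wider spread of the late kidneys. Pairs were compared by exact permutation tests over kidneys. Arrays have no count depth, so their number limits the precision, and dim probe sets compress differences. Alternatives were the 2 groups alone, eBayes with trend and robust settings, median centring, quantile normalization, a filter on probe sets with a mean below 4, array weights, a replicate block, a beta-actin covariate, an average over the probe sets of each gene, a 2-fold minimum and each kidney left out. Groups came from the labels of each sample.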

Additional observations from a re-analysis of the deposited data

Results flagged for a closer look

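The 32 genes at 6 weeks gave 192 groups of 5 kidneys, and the median difference of the 32 genes gave 6 more. Of these, 13, each of a single gene, had 1 kidney set apart from the other 4 by a Dixon test at 95%, and chance flags about 1 in 20 groups. Week 7 replicate 4 gave 4 of the 13, each above its group: Slc34a3 at 6.13 (others 4.27 to 4.78), Slc5a2 at 7.96 (6.86 to 7.17), Slc1a1 at 11.12 (10.66 to 10.75) and Slc23a1 at 9.16 (8.17 to 8.37). Kidneys set above their group were also found for Slc20a1 at 6.96 (week 2 replicate 3), Slc1a1 at 11.27 (week 3 replicate 4), Slc38a3 at 5.76 (week 1 replicate 4), Slc16a14 at 8.02 (week 2 replicate 2) and Slc17a3 at 11.44 (week 1 replicate 5). Kidneys set below their group were found for Slc3a2 at 8.37 (week 5 replicate 2) and 8.05 (week 9 replicate 1), Slc17a1 at 11.72 (week 5 replicate 5) and Amn at 7.02 (week 1 replicate 1).

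Between the week 1 and week 9 kidneys, 11 genes were lower and 2 higher at week 9 by a direct test (limma, adjusted p below 0.05), where 6.11% and 6.6% of all genes were. Each week has no untreated kidneys of its own, so time after injection and ageing cannot be told apart here.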

How the results depend on the processing

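No value changed direction among the called results under any alternative. Fitting only the 2 groups compared gave 1 fall and 1 rise at week 3, 1 fall at week 5, 3 falls and 1 rise at week 7, 4 falls and 0 rises at week 9, 10 falls from week 5 to 7 and 1 rise from week 1 to 9. The beta-actin covariate gave 9 falls and 1 rise at week 7 and 3 falls and 0 rises at week 9. A 2-fold minimum gave 8 falls and 0 rises at week 7 and 5 falls and 0 rises at week 9. The week 9 rises were 2 with trend and robust settings, with median centring or without dim probe sets. Quantile normalization gave a median of -0.047 at week 2 and 0.0311 at week 3, and 1 rise at week 7. Averaging the probe sets of each gene gave 17 falls and 1 rise from week 1 to 9 and 2 rises from week 5 to 7. The cause of these shifts was not tested. Array weights kept every count within 1.5 times.

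With 1 kidney left out at a time, falls ran from 10 to 19 at week 7, 3 to 13 at week 9, 13 to 23 from week 5 to 7 and 9 to 14 from week 1 to 9. Rises ran from 0 to 1 at week 3, 1 to 3 at week 7, 1 to 2 at week 9, 0 to 2 from week 1 to 9 and 0 to 2 from week 7 to 9, and the week 3 median from 0.0229 to 0.115. Counts at weeks 1, 2 and 5 stayed at 0.

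Replicate numbers did not pair the kidneys: residuals of same-numbered kidneys correlated by a mean of 0.0003, with 10 of 93 pairs over 0.1. With the replicate block, 17 genes fell and 2 rose at week 7 and 8 fell and 1 rose at week 9.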
